A study of Danio rerio with 2 samples.

Results

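The actins compared here were 7 zebrafish genes, namely the cytoplasmic beta-actins bactin1 (current symbol actb1) and bactin2 (actb2), the skeletal muscle alpha-actins acta1a and acta1b, the smooth muscle alpha-actin acta2 and the cardiac-type alpha-actins actc1a and actc1b. They were taken by name, and all 7 were found among the 27098 gene features of the deposited tables. RNA sequencing had been done on 2 pools, 1 of whole zebrafish embryos (15 embryos in each sample) and 1 of livers dissected from adult zebrafish. Fish of both pools had been exposed for 48 h to 9 compounds toxic to the human liver, namely acetaminophen, amiodarone, chlorpromazine, cyclosporine A, paraquat, tetracycline, thioacetamide, valproic acid and 17a-ethynylestradiol, and RNA of all samples of a source was mixed in equal amounts. No value belongs to a single compound, no unexposed library was analysed here, and the sources used here do not state strain, sex, embryo age or how many samples went into a pool. Source (whole body or liver) and life stage (embryo or adult) cannot be told apart.

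Actin monomers assemble into filaments that carry the cell cortex, motility and transport in every cell and form the thin filaments of muscle sarcomeres, where myosin pulls on them. Beta-actins are made in nearly all cell types, whereas the alpha-actins are made mainly in skeletal, cardiac and smooth muscle. In zebrafish embryos actc1b is made in skeletal muscle as well as in the heart. Beta-actin is also widely used as a reference gene for expression measurements, including those in zebrafish.

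The total count assigned to genes was 11408727 reads in embryos and 13020149 in liver. Each source had 1 library, so differences have no replicate check and carry no p-value. Bracketed 95% intervals cover counting error alone. Across the 21750 genes with at least 10 reads in either pool log2 ratios of liver over embryo had a median of -1.60, by counts scaled to library totals (CPM). Trimmed-mean (TMM) scaling moved every log2 ratio by 1.42 toward the liver pool and median-of-ratios size factors by 1.45. Hepatocyte and skeletal muscle markers, listed with earlier results of these data known, went with the labelled sources under the call rule given below. All 10 measured hepatocyte markers were higher in liver, against 3.35% of all measured genes. All 16 measured skeletal muscle markers were higher in embryos, against 30.9% of all measured genes.

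Among the 7 actins, muscle actin made up most of the reads in the embryo pool and a single cytoplasmic actin, bactin2, most of those in the liver pool. Differences were called when the whole 95% interval of the ratio was 4-fold or more and the higher library held 10 reads or more. By this rule 6 of the 7 actins were higher in embryos, against a background of 30.9% of the 21750 measured genes. None was higher in liver, against a background of 3.35%, and bactin2 was called in neither direction. With TMM factors 5 actins were higher in embryos against a background of 15.1%, bactin1 lost its call, and none was higher in liver against 8.39%. Size factors gave the same counts against backgrounds of 14.9% and 8.54%. The 6 embryo calls were also made from unique gene reads, total exon reads and unique exon reads, against 30.3%, 36.4% and 34.6% of all genes. In those classes 3.45%, 3.38% and 3.5% of all genes were higher in liver, and no actin was. All 7 actins passed the minimum of 10 reads, but acta1a and actc1a did so only through the embryo pool. The median log2 ratio of the 7 was -9.82, beside -1.60 over all measured genes. In pools of RNA, fewer cells of a type and less RNA per cell cannot be told apart.

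**Figure D1:**
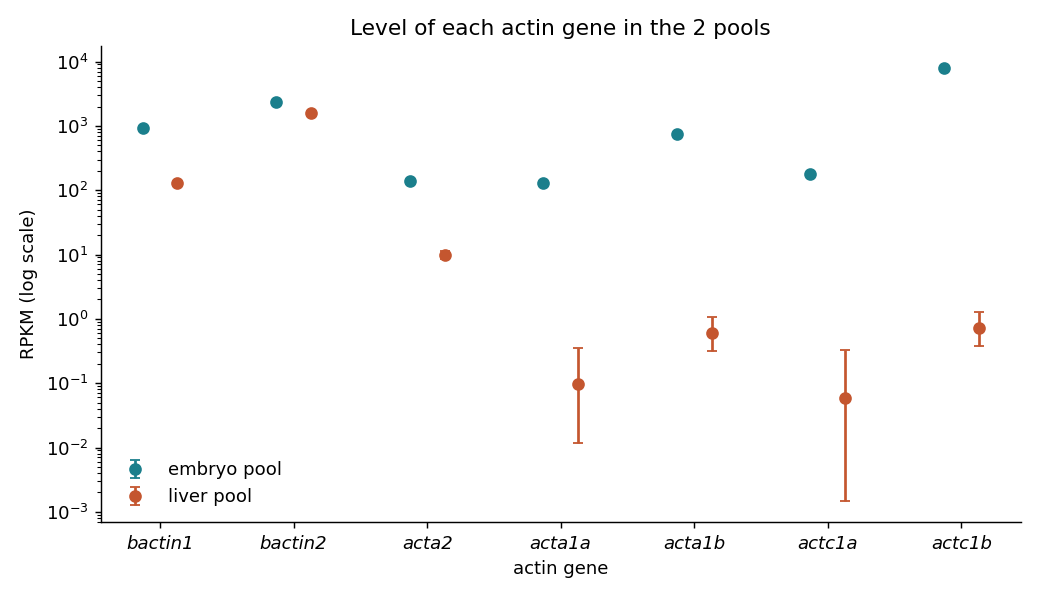
Level of each actin gene as deposited RPKM on a log axis, in embryos (teal) and in liver (red), 1 library each, with 95% Poisson intervals on the exon reads that cover counting error only. The levels of bactin2 lie close together at 2317 and 1600 RPKM, while those of actc1b lie at 8008 and 0.731 RPKM.

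Levels were compared between genes on the deposited RPKM, exon reads scaled by exon length and library total. In the embryo pool actc1b was first at 8008 RPKM (7962 to 8055), followed by bactin2 at 2317 (2296 to 2338), bactin1 at 926 (913 to 940) and acta1b at 738 (725 to 751). Far below came actc1a at 181 (175 to 188), acta2 at 139 (133 to 144) and acta1a at 127 (122 to 132), whose counting intervals did not overlap. By RPKM actc1b was the gene of rank 2 among all features of the embryo pool and bactin2 that of rank 12. The place of actc1a in this order depended on shared reads.

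In the liver pool the order was led by bactin2 at 1600 RPKM (1583 to 1616), at rank 61 among all features. Next came bactin1 at 128 (124 to 133) and acta2 at 9.81 (8.51 to 11.3). The remaining 4 were under 1 RPKM, and the counting intervals of neighbours among them overlapped. These were actc1b at 0.731 (0.378 to 1.28), acta1b at 0.612 (0.316 to 1.07), acta1a at 0.0968 (0.0117 to 0.350) and actc1a at 0.0591 (0.00150 to 0.329). Set against each other per exon length, actc1b exceeded acta1a 7.56-fold (1.68 to 69.5) and acta1b exceeded acta1a 6.33-fold (1.41 to 58.2) by total exon reads. By unique exon reads the latter ratio was 4.75, with an interval of 0.982 to 45.1 that includes 1. The deposited median coverage over these 4 genes was 0 in liver, against 69 for acta1a and 4638.5 for actc1b in embryos, while bactin2 had a median coverage of 1063 in liver and 1358 in embryos.

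Of the cytoplasmic actins, bactin2 had 46652 total gene reads in embryos and 36770 in liver, or 4089 and 2824 CPM. Its liver level was 0.691 of the embryo level (0.681 to 0.700) on library totals, but 1.85 times that level (1.82 to 1.88) with TMM factors, so its direction rests on the scaling. By its place among all genes, 74.6% of the 21750 measured genes had a lower liver to embryo ratio than bactin2. The other cytoplasmic actin, bactin1, had 17807 reads in embryos and 2820 in liver, or 1561 and 217 CPM. It was 7.21-fold higher (6.93 to 7.50) in embryos, a value that came to 2.69-fold (2.59 to 2.80) with TMM factors. On library totals its log2 ratio of -2.85 lay 1.25 below the median of all genes, and 29.1% of the measured genes had a lower ratio.

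The proportion of the beta-actins to each other is free of the library scaling. Per exon length, bactin2 exceeded bactin1 2.50-fold (2.46 to 2.54) in embryos and 12.5-fold (12.0 to 12.96) in liver. The proportion was thus 4.98 times as large (4.78 to 5.20) in liver. With unique exon reads alone, those with 1 position, bactin2 exceeded bactin1 3.98-fold in embryos and 19.0-fold in liver, and the proportion was 4.77 times as large (4.53 to 5.03) in liver.

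**Figure D2:**
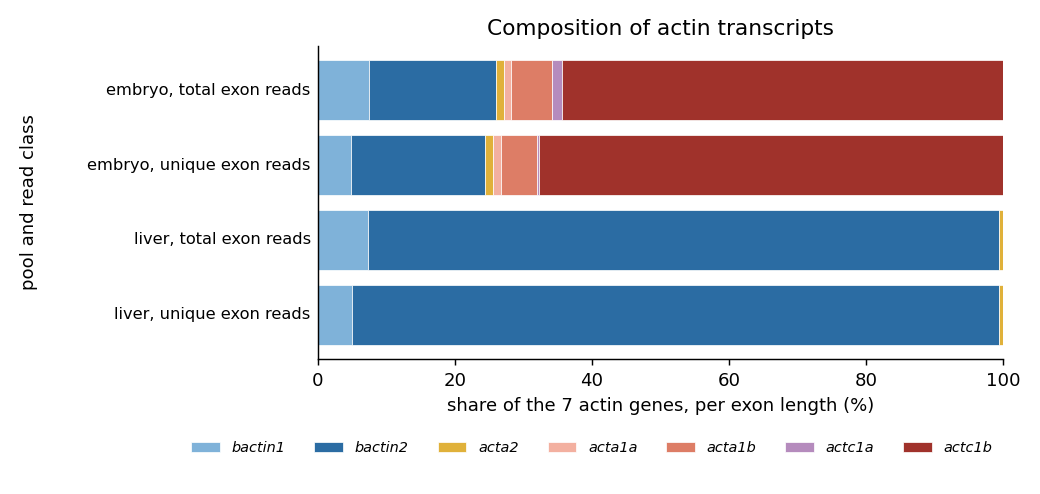
Share of each actin gene in the sum of the 7, per exon length, by total and by unique exon reads, in embryos and in liver, 1 library each. In the embryo pool actc1b takes 64.4% of the total exon reads per length, and in liver bactin2 takes 92.0%.

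As shares of the 7 actins per exon length, the cytoplasmic pair made up 26.1% (25.9 to 26.3) in embryos and 99.3% (99.3 to 99.4) in liver. The 4 striated muscle actins made up 72.8% (72.6 to 73.0) in embryos and 0.0862% (0.0568 to 0.125) in liver. The share of bactin1 was nearly the same in both, at 7.45% (7.34 to 7.56) and 7.38% (7.12 to 7.64). By unique exon reads per length it was 4.92% in embryos and 4.97% in liver. By total gene reads, without regard to length, its shares differed, at 8.91% (8.78 to 9.03) in embryos and 7.08% (6.83 to 7.34) in liver. The share of bactin2 was 18.6% in embryos and 92.0% in liver.

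Among the striated muscle actins, actc1b had 115161 reads in embryos, 1.01% of that library, and 12 in liver. It was 10952-fold higher (6270 to 21197) in embryos. With 3 reads put in place of a 0 count, 11 of the 21750 measured genes had a lower liver to embryo ratio. That place depends on the replacement, since genes with 0 liver reads did not all count as lower. The skeletal muscle alpha-actin acta1b had 12701 reads in embryos and 16 in liver, and was 906-fold higher (558 to 1585) in embryos. Its paralog acta1a had 2327 reads in embryos and 2 in liver, a ratio of 1328 (367 to 10971). The least abundant in liver, actc1a, had 2698 reads in embryos and 1 in liver, a ratio of 3079 (552 to 121662). All 4 remained called under each read class and scaling tried. Summed, the 4 genes had 132887 embryo reads and 31 liver reads and were 4892-fold higher (3446 to 7200) in embryos.

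The 31 liver reads were too few for a full order of the 4 genes, but the proportion of actc1b to acta1b differed from that in embryos. By exon reads per length, actc1b exceeded acta1b 10.8-fold (10.7 to 11.1) in embryos, with 115119 against 12674 reads. In the liver pool both had 12 exon reads and the ratio was 1.19 (0.491 to 2.91). The ratio of actc1b to acta1b was therefore 9.08 times as large (3.73 to 22.1) in embryos, and 8.13 times (3.02 to 21.0) with unique exon reads. The same factor was 8.34 (0.906 to 37.5) for actc1b over acta1a and 3.57 (0.0834 to 24.1) for actc1b over actc1a. Both of these intervals, by total exon reads, include 1. For acta1b over acta1a the proportions were 5.81 in embryos and 6.33 in liver, and the liver proportion was 1.09 times the embryo proportion with an interval of 0.242 to 10.03. Of the 16 liver reads of acta1b, 4 lay outside exons, whereas none of the 12 of actc1b did.

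The skeletal muscle markers, 16 of 17 listed genes with a feature, had few or no reads in liver. The liver reads of neb, tnnt3a and tnni2a.4 gave 0 RPKM, so none of them lay in exons. Of the liver reads of the myosin genes myhz1.1 and myhz1.2, 18.8% and 14.3% were unique. The 16 markers summed to 69579 CPM in embryos and 8.53 CPM in liver. Their single liver levels ran from 0 CPM for the parvalbumin gene pvalb2 to 1.61 CPM for the fast myosin heavy chain gene myhz2. Of the embryo reads of myhz1.1, myhz1.2 and myhz2, 31.9%, 33.0% and 34.7% were unique, so the embryo sum is uncertain. Of 9 measured cardiac muscle markers 8 were higher in embryos, beside 30.9% of all genes, and 7 with TMM factors, beside 15.1%. No liver read was counted for 4 of them. All 9 together summed to 210 CPM in embryos and 3.15 CPM in liver. The 10 liver reads of myl7, 7 of tnnt2a and 8 of tnni1b gave 0 RPKM, so none of them lay in exons. For nppb, called in neither direction, the reads were 10 in embryos and 9 in liver. The part of muscle RNA in the liver values of the alpha-actins was not tested.

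The smooth muscle actin acta2 stood between the cytoplasmic and the striated muscle genes. It had 2535 reads in embryos and 214 in liver, or 222 and 16.4 CPM. It was 13.5-fold higher (11.8 to 15.6) in embryos, and 5.05-fold (4.39 to 5.83) with TMM factors, so that the call held. Per exon length bactin2 exceeded acta2 16.7-fold (16.04 to 17.4) in embryos and 163-fold (142 to 188) in liver, and bactin1 exceeded it 6.68-fold and 13.1-fold. In the embryo pool actc1b exceeded acta2 57.7-fold per length, whereas in liver it was at 0.0745 of acta2.

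Other smooth muscle genes ranged widely. The intermediate filament gene desma (desm in the files), which is also made in striated muscle, had 1494 embryo reads and 12 liver reads. The actin-bundling gene tagln, at 46.2 CPM in embryos and 6.99 CPM in liver, was 6.61-fold higher (5.28 to 8.35) in embryos. For the smooth muscle myosin heavy chain gene myh11a (myh11 in the files) the ratio was 7.08 (6.10 to 8.26), and for the myosin light chain gene myl9a (zgc:103467 in the files) 9.13 (6.81 to 12.5). The calponin gene cnn1b (LOC572250 in the files) at 4.16-fold (2.90 to 6.08) and notch3, a receptor of mural cells, at 4.10-fold (3.63 to 4.64) were called in neither direction. By exon reads the gap of cnn1b was wider, at 8.86 RPKM in embryos and 0.413 RPKM in liver. Of 13 measured smooth muscle and mural cell markers 7 were higher in embryos, beside 30.9% of all genes, and none in liver, beside 3.35%, with a median log2 ratio of -2.72. With TMM factors 2, desma and cspg4, were higher in embryos, which is near the background share of 15.1%. The calls of tagln, myh11a and myl9a were lost with those factors. These 14 matched markers summed to 525 CPM in embryos and 72.4 CPM in liver. Hepatic stellate cells, the contractile pericytes of the liver, had 7 measured markers, of which colec11 and steap4 (zgc:112143 in the files) were higher in liver, col1a1a and lratb.2 (LOC556575 in the files) in embryos and 3 in neither, beside 3.35% of all genes for liver and 30.9% for embryos. With TMM factors lrata was also called higher in liver, which made 3 there and 2 in embryos, beside 8.39% and 15.1% of all genes. The 7 markers summed to 3162 CPM in embryos, mostly col1a1a, and 220 CPM in liver. The part of these cell types in the levels of acta2 was not tested.

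**Figure D3:**
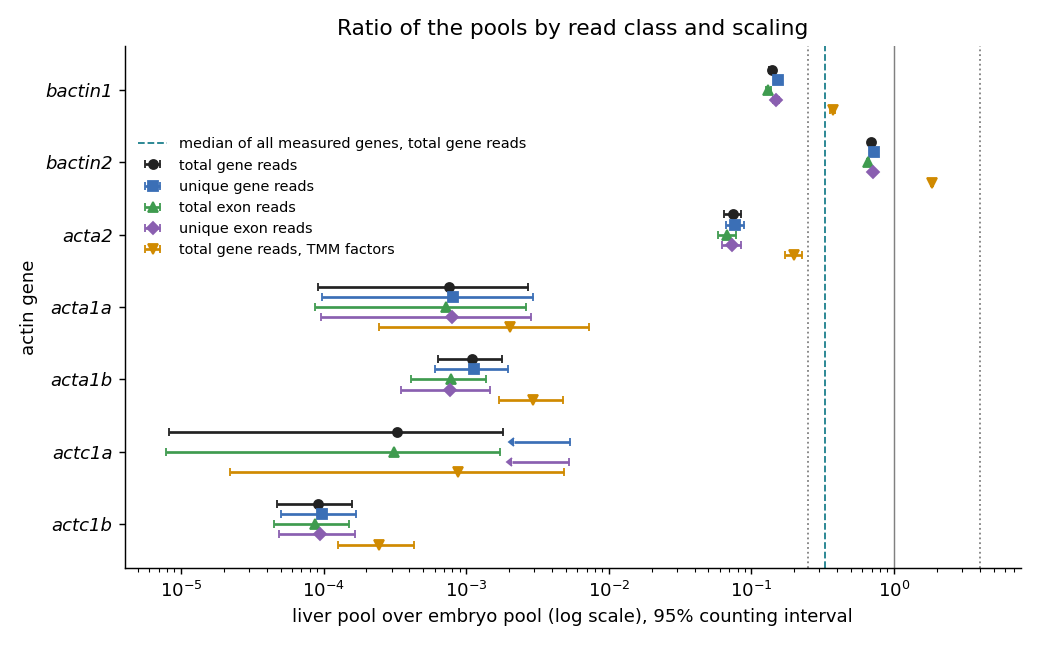
Ratio of the liver pool over the embryo pool for each actin gene on a log axis, with 95% counting intervals. The values are for 4 read classes, each scaled to its own total in the library, and for total gene reads with TMM factors. Arrows are upper limits where the liver pool had no unique read. The dotted lines mark 4-fold and the dashed line the median of all measured genes, and only bactin2, at 0.691 and 1.85, lies on different sides of 1 under library totals and TMM factors.

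Actin genes are alike in their coding sequences, and reads that fit several positions were counted among the total but not among the unique reads. For bactin2, actc1b, acta1a and acta2 this mattered little, since 99.5%, 99.6%, 99.1% and 99.5% of their embryo reads were unique. For bactin1 the unique share was 62.5% (61.8 to 63.2) in embryos and 65.0% (63.2 to 66.8) in liver. Each read class was scaled to its own total in each pool. The embryo excess of bactin1 was 6.52-fold (6.21 to 6.85) with unique gene reads, 7.60-fold (7.30 to 7.91) with total exon reads and 6.73-fold (6.41 to 7.08) with unique exon reads. These values therefore also reflect the whole libraries. Exon reads made up 85.6% of the embryo library and 90.1% of the liver library, and unique reads 85.1% and 80.2%. For acta1b the unique share was 83.5% (82.9 to 84.2) in embryos. The lowest share was that of actc1a, with 639 of 2698 embryo reads unique, 23.7% (22.1 to 25.3), and neither its level nor its rank is certain. Without shared reads its part of the embryo actins per length went from 1.46% to 0.363%, below acta1a at 1.07% and acta2 at 1.18%. In the same comparison acta1b, at 5.23%, passed bactin1, at 4.92%. The single liver read of actc1a was not unique. By unique reads, 639 in embryos and 0 in liver, the exact 95% interval of the embryo excess of actc1a began at 186-fold, and the ratio was 229 with 3 reads put in place of 0.

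**Figure D4:**
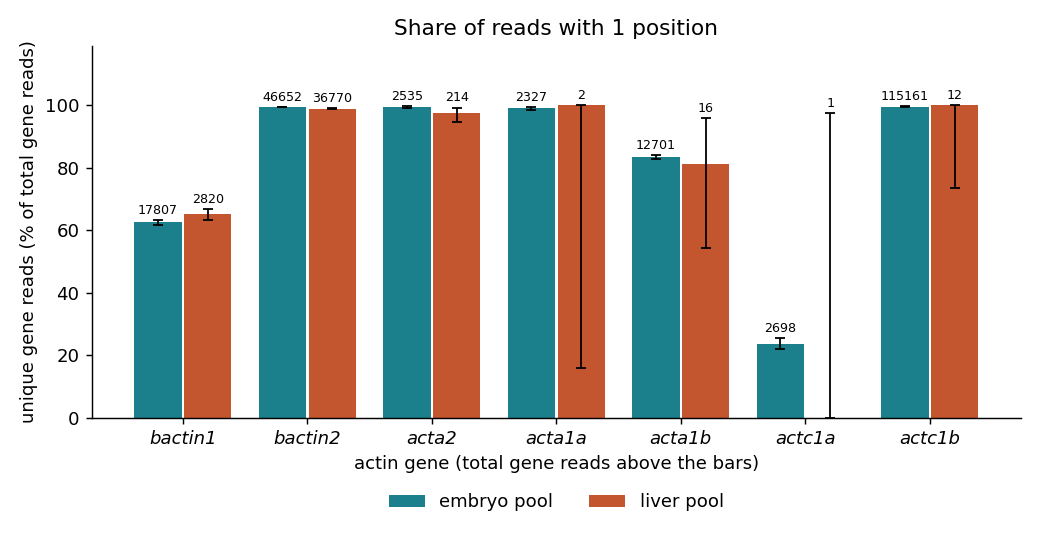
Unique gene reads as a percentage of total gene reads for each actin gene in embryos (teal) and the liver pool (red), with exact 95% binomial intervals and the total gene reads printed above the bars. The embryo bars of bactin1 at 62.5% and actc1a at 23.7% stand below those of the other genes.

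The reads of the abundant actins lay almost wholly in exons. Exon reads made up 99.9% of the embryo reads of bactin1 and of bactin2 and 98.7% of those of acta2, beside 85.6% over the whole embryo library. In the liver pool the exon share was 99.7% for bactin1, 99.9% for bactin2 and 94.4% for acta2, beside 90.1% over the whole liver library. Reads across exon junctions, counted among the exon reads, marked spliced transcripts. Their share hardly differed between the pools for bactin1, with 14.8% (14.3 to 15.3) in embryos and 14.9% (13.6 to 16.3) in liver. The same held for bactin2 at 12.7% (12.4 to 13.03) and 12.5% (12.2 to 12.9), and for acta2 at 23.8% (22.1 to 25.5) and 22.3% (16.7 to 28.6). For actc1b, a gene of 9 exons, the embryo share was 26.2%, and 4 of its 12 liver exon reads crossed a junction. The beta-actin genes have 6 exons in the files and acta2 has 9.

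Since beta-actin serves as a reference gene, both beta-actins were set beside other genes used that way, of which 15 were measured. Their median log2 ratio was 0.01, beside -1.60 over all genes, and 11 of the 15 were called in neither direction, a share near that of all genes, at 14292 of 21750. Relative to these genes, bactin1 was lower in liver against 13 of 15 and higher against 2, with a median ratio of 0.138. In the same comparison bactin2 was lower in liver against 9 and higher against 6, with a median of 0.687. Against the elongation factor gene eef1a1l1 (ef1a in the files), at 9408 CPM in embryos and 13273 CPM in liver, bactin2 was at 0.490 (0.482 to 0.497) and bactin1 at 0.0984 of its embryo proportion. Against the ribosomal protein gene rpl13 the values were 0.687 and 0.138, against rplp0 0.499 and 0.100, against rpl13a 0.595 and 0.120, against rps18 0.595 and 0.120, and against the purine salvage gene hprt1 0.601 and 0.121. Against the cyclophilin genes the values were 0.848 and 0.170 for ppiaa (ppia in the files) and 1.80 and 0.361 for ppiab (ppial in the files). Against the succinate dehydrogenase gene sdha they were 1.99 and 0.399, against the TATA-binding protein gene tbp 2.06 and 0.414, and against the polyubiquitin gene ubc (zgc:153686 in the files) 3.35 and 0.672.

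Of the called reference genes, 3 had larger ratios than bactin1. The beta-2-microglobulin gene b2m was 87.6-fold higher (67.5 to 116) in liver. The glyceraldehyde-phosphate dehydrogenase gene gapdhs was 45.8-fold higher (40.1 to 52.5) in embryos. The tubulin gene tuba1b (tuba1 in the files) was 89.9-fold higher (38.2 to 279) there, with 24.6% of its embryo reads unique. The fourth, ubc, was 4.84-fold higher (4.61 to 5.09) there but not called with TMM factors, with 19.1% unique. The paralog gapdh had a ratio of 3.66 (3.50 to 3.84), which was called higher in liver with TMM factors, and none of its reads was unique, so that its level is uncertain. Against b2m bactin2 was at 0.00788 of its embryo proportion, against gapdh at 0.188, against gapdhs at 31.6 and against tuba1b at 62.1.

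Of 21 measured genes that bind actin monomers and turn filaments over, 9 were higher in embryos, beside 30.9% of all genes, and 3 with TMM factors, beside 15.1%. None was higher in liver, beside 3.35% of all genes, and the median log2 ratio was -1.91 beside -1.60. These counts lie near the background. The cofilin gene cfl1, whose protein severs filaments, went from 179 CPM in embryos to 9.45 CPM in liver, 18.9-fold higher (15.8 to 22.9) in embryos. The profilin gene pfn1, whose protein feeds monomers to filament ends, was 11.1-fold higher (10.1 to 12.2) in embryos, with 2.78% of its embryo reads unique. The call of pfn1 was lost with TMM factors. The monomer-sequestering thymosin gene tmsb4x (zgc:195154 in the files), the most abundant of the list, had 778 CPM in embryos and 440 CPM in liver and was called in neither direction, as was the profilin gene pfn2b (pfn2 in the files) at 350 and 124 CPM. Their unique shares were 12.5% and 7.85% of the embryo reads, so these levels are uncertain. The gelsolin-like gene scinla was 386-fold higher (230 to 706) in embryos.

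Of 30 measured nucleation, elongation and capping genes, 5 were higher in embryos and 0 in liver, beside 30.9% and 3.35% of all genes. Their median log2 ratio of -1.68 was close to the -1.60 of all genes. The most abundant, actr3 of the branching Arp2/3 complex, had 234 CPM in embryos and 87.2 CPM in liver, a ratio of 0.373 (0.348 to 0.400). The 5 were the capping protein gene capza1b at 5.13-fold (4.68 to 5.64), the WAVE genes wasf1 (LOC100001221 in the files) at 40.0-fold and wasf3b (wasf3 in the files) at 19.7-fold, and the filament-elongating genes enah at 20.2-fold and evla at 50.5-fold. Of these, capza1b lost its call with TMM factors. The actin-related proteins, whose list shares its Arp2/3 members with the former, had 1 of 10 measured members higher in embryos, beside 30.9% of all genes, and a median of -1.75. That member was actl6b (zgc:110167 in the files), a chromatin remodelling subunit of neurons in mammals, with 44 embryo reads and 4 liver reads, and its call was lost with TMM factors.

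Crosslinking and anchoring genes included muscle members, and 15 of 24 measured were higher in embryos, beside 30.9% of all genes. With TMM factors 9 were, beside 15.1%, and the median log2 ratio on library totals was -3.03. The sarcomeric alpha-actinin gene actn3b went from 1824 CPM in embryos to 11.2 CPM in liver, and its paralog actn3a from 1028 to 0.307 CPM, with 37.7% of the embryo reads of actn3b unique. By exon reads per length the embryo order of the paralogs was reversed. There actn3b had 96.8 RPKM in embryos and 1.51 RPKM in liver, and actn3a 321 and 0.0962 RPKM. The filamin gene flna was 4.87-fold higher (4.48 to 5.30) in embryos, a call lost with TMM factors. The plastin gene pls3, with 103 CPM in embryos and 123 CPM in liver, and the membrane linker gene ezra (ezrl in the files), with 93.4 and 117 CPM, were called in neither direction under either scaling.

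Of 15 measured genes for folding and modifying actin, 1 was higher in embryos and 0 in liver, beside 30.9% and 3.35% of all genes. The other 14 were called in neither direction, as were 14292 of all 21750 genes, and their list had a median of -0.82. The chaperonin subunit genes cct6a, cct7 and cct5, whose complex folds newly made actin, had ratios of 0.836 (0.799 to 0.873), 0.589 (0.559 to 0.621) and 0.612 (0.579 to 0.646). These values passed 1 with TMM factors, for cct6a at 2.24. The exception was unc45b, a myosin chaperone gene of muscle, 35.8-fold higher (17.9 to 83.9) in embryos. Of 12 measured genes around SRF and its MRTF cofactors, which switch on actin genes, 5 were higher in embryos, beside 30.9% of all genes, with a median of -1.79 beside -1.60. These were smyd1a, smyd1b and fhl2a, which are genes of striated muscle, the matrix gene ccn2a (ctgf in the files) and srfb (srfl in the files), the last with 47 embryo reads and 2 liver reads and not called with TMM factors. With TMM factors 4 of these 12 genes were higher in embryos, beside 15.1% of all genes. The cofactor gene mrtfab (wu:fb39e12 in the files) had 65.0 CPM in embryos and 16.4 CPM in liver, a ratio of 0.253 (0.216 to 0.295).

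Partners of actin in the thin filament were mostly higher in embryos. Of 21 measured, 18 were higher in embryos, beside 30.9% of all genes, and 14 were with TMM factors, beside 15.1%. None was higher in liver, beside 3.35%, and the median log2 ratio was -4.71. The tropomyosin gene tpma had 53161 embryo reads and 4 liver reads, the troponin T gene tnnt3b 32681 and 4, and the troponin I gene tnni2a.4 13919 and 1. Called in neither direction were the tropomyosin genes tpm1 and tpm4a (tpm4 in the files) and the nebulin-related gene nrap (zgc:136406 in the files). The 3117 embryo reads of nrap gave 1.85 RPKM and its 1197 liver reads 0 RPKM, so none of the liver reads lay in its exons. Unique reads made up 41.0% of its embryo reads and 36.5% of its liver reads, so its level is uncertain.

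**Figure D5:**
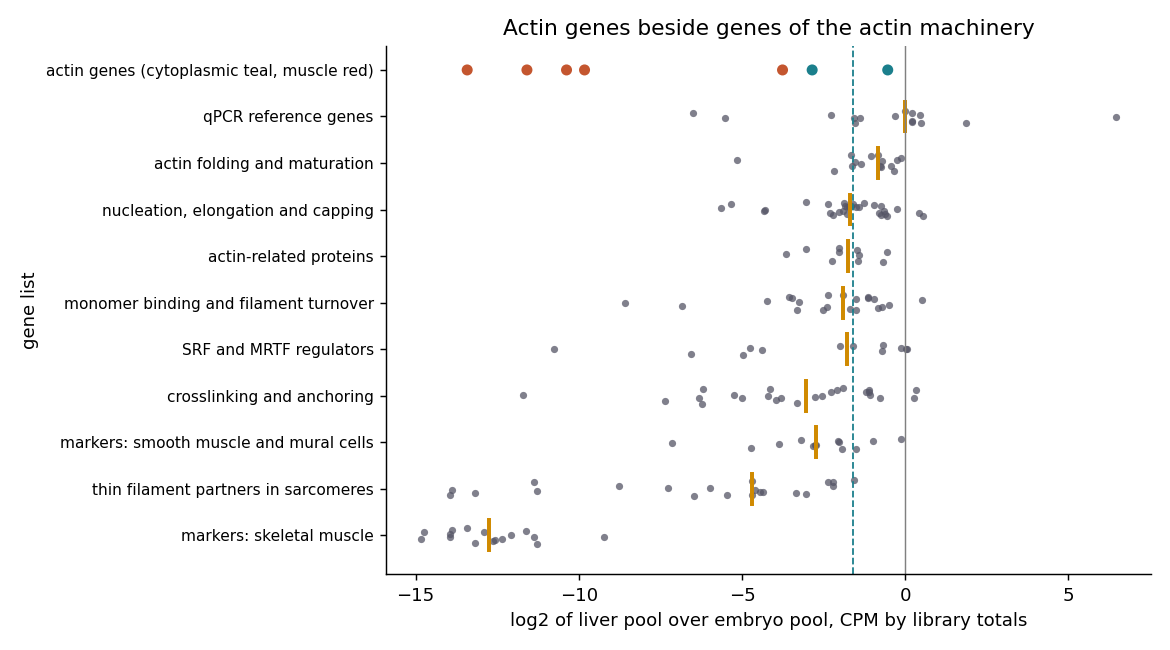
Log2 ratio of liver pool over embryo pool for the 7 actin genes (top row, cytoplasmic in teal and muscle in red) and for the measured genes of 10 lists, by CPM on library totals; orange bars are list medians and the dashed line is the median of all measured genes at -1.60. The list medians run from 0.01 for the reference genes to -12.8 for the skeletal muscle markers.

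The genes nearest to each actin in both pools, by Euclidean distance of log2(CPM + 1) over the 2 libraries, were listed without regard to function. For actc1b they were the fast myosin genes myhz1.2, mylpfa (mylz2 in the files) and myhz1.1, at distances of 0.59 to 0.97. For bactin2 they were the chaperone genes hspa8 and hsp90ab1 and the mitochondrial carrier gene slc25a5, at 0.48 to 0.80. The nearest to bactin1 were ptmab, cirbpa (zgc:112425 in the files) and ctrb.1 (ctrb1 in the files), at 0.54 to 0.95. The nearest to acta2 were per1b, zgc:110158 and h3f3b.1 (zgc:110292 in the files), at 0.07 to 0.14, and the nearest to acta1b were col11a1a (zgc:158335 in the files), cyt1l and ttna, at 0.28 to 0.35. For acta1a the nearest were prph2b, crygmx and thbs1, and for actc1a slc6a1b (zgc:103663 in the files), islr2 and crygm2d16, all within 0.12 and at or under 0.23 CPM in liver.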

How the data were processed

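The authors deposited, per the file headers, whole-number counts of reads for each gene, as unique and total reads over the gene, its exons, exon junctions and intron-exon boundaries, together with RPKM and median coverage. Unique reads were taken to be those with 1 position. RPKM equalled total exon reads scaled by exon length and total gene reads. The sources used here state no aligner, annotation or build. Coordinates are therefore left out, and sequences were not used here.

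CPM was computed on total gene reads and library totals. Ratios by another read class were scaled to the total of that class in each library. Ratios carry exact 95% intervals (Clopper-Pearson on the conditional binomial), shares of reads exact binomial intervals, and RPKM Poisson intervals. Shares per exon length carry approximate intervals, the exact limits of the read share moved to the per-length share on the odds scale. Ratios of proportions have log-scale intervals, or exact conditional ones under 100 liver reads. A gene with at least 10 reads in either pool was measured, and a call needed an interval wholly at or beyond 4-fold. A count of 0 was replaced by 3 reads for the log2 ratios, their medians and the places among all genes, and for 1 ratio of actc1a. Calls, intervals and the other ratios used the counts unchanged. Reads are not independent molecules, so intervals cover counting error only.

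The members, the 15 gene lists and the rules were chosen with earlier results of these data known. Of 241 list genes, 124 matched a feature by name, 60 by a synonym and 18 by gene number in the RefSeq table of assembly GRCz12tu, which was used for names only. Named genes were the actins, their 3 nearest genes, the most abundant members of each list, members that went alone and the reference genes; not every gene this rule allows is printed, and some further members were chosen after their values were seen. The red blood cell list had 2 of 5 measured members higher in each pool, and the leukocyte list 1 of 6 in each, beside 30.9% of all genes for embryos and 3.35% for liver. TMM factors came from edgeR 4.0.16 and size factors from DESeq2 1.42.0, in R 4.3.3, over measured genes, with no test. Alternatives are in the closing section. Python 3.11.15 and SciPy 1.17.1 were used.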

Additional observations from a re-analysis of the deposited data

How the results depend on the processing

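The alternatives were unique gene reads, total exon reads, unique exon reads, TMM factors, size factors, a minimum of 50 reads, no minimum and a 2-fold threshold. The ratio of bactin2, liver over embryo, turned from 0.691 to 1.85 with TMM factors and 1.89 with size factors. That of the summed beta-actins turned from 0.538 to 1.44 and 1.47. The call of bactin1 was lost under both, at ratios of 0.372 and 0.380. Both kinds of factors apply 1 shift to the log2 ratios of all genes. Which scaling comes closer to the RNA amounts was not tested. The calls of acta1a, acta1b, acta2, actc1a and actc1b and of the summed muscle actins held under all read classes and scalings, and 6 actins were higher in the embryo pool with each read class. Over all genes, those higher in the embryo pool went from 6730 to 3292 with TMM factors, 3235 with size factors and 11392 with a 2-fold threshold. Those higher in the liver pool went from 728 to 1824, 1858 and 1404. No paired analysis was possible because each source had 1 library. Reads in the liver pool limit the alpha-actins of striated muscle, whose 31 reads give ratios known only within wide intervals, and reads shared between genes limit bactin1, acta1b and actc1a.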

Other observations

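A pair of further actin features, chosen after their values were seen, was detected in the embryo pool alone at this depth. The feature zgc:86725 (current symbol acte1) had 948 embryo reads, 944 of them unique, at 61.1 RPKM, and zgc:86709 (actc2) had 378 embryo reads, all unique, at 23.2 RPKM. Both had 0 liver reads.

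The feature LOC100330187, which the reference table does not annotate, was the only one whose non-unique reads were within a factor of 1.4 of those of bactin1 in both pools. It had 987 non-unique reads in the liver pool beside 986 for bactin1, and 5041 in the embryo pool beside 6678 for bactin1. Of its 7199 total gene reads in the embryo pool 83 lay in exons. The files do not record which features share a read. The count of non-unique embryo reads was also close between actc1a, with 2059, and acta1b, with 2094.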
